A study of Mus musculus with 10 samples.

Results

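Forkhead transcription factors share a winged-helix DNA-binding domain and act in the nucleus as activators or repressors of transcription. The FOXO proteins are switched largely by location: AKT, downstream of insulin and growth factor signalling, phosphorylates them and 14-3-3 proteins then hold them in the cytoplasm, so the abundance of a FOXO mRNA is not a measure of FOXO activity. Foxp1 and Foxp4 encode repressors that pair through a leucine zipper, Foxc1 and Foxc2 encode factors of heart outflow tract and vessel development, Foxk1 and Foxk2 encode factors that recruit SIN3 co-repressors, and FOXJ3 is known as an activator of Mef2c in skeletal muscle. The genes examined were 10 named forkhead genes (Foxp1, Foxp4, Foxc1, Foxc2, Foxo1, Foxo3, Foxo4, Foxk1, Foxk2 and Foxj3) of 45 protein-coding forkhead genes in the count tables, which hold 56748 genes in all. They were listed by name, without a threshold on any measured value.

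RNA was sequenced from whole mouse hearts, both atria included, of wild-type C57BL/6 males that were 8 weeks old when obtained. The training group (5 hearts) ran on a treadmill at 15 m/min for 120 min per day on 5 days per week over 8 weeks, and the sedentary group (5 hearts) did not train. The groups shared genotype, diet and housing, and each library was made from the heart of 1 mouse. Counts on genes ranged from 29461697 to 35945417 per library after training and from 35196993 to 39431030 in sedentary hearts, so that even the least abundant of the 10 genes, Foxc2, was read at least 66 times in each heart. A whole heart mixes cardiomyocytes, vessels, endocardium and connective tissue, and in such bulk RNA a change in the number of cells of a type and a change in RNA per cell cannot be told apart. Sedentary hearts 2 and 5 stood apart from the others in atrial marker RNA, as seen once the values were known. The summed counts per 1000000 reads (CPM) of 10 atrial markers were 2931 and 2962 there, against 4788 to 7872 in the other 8 hearts. Myh6, the alpha myosin heavy chain of adult mouse cardiomyocytes, stood at 27236 ± 553 CPM after training and 29353 ± 1214 CPM in sedentary hearts (SD, n = 5 each), a level that goes with the tissue label.

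The DNA letters that forkhead proteins read are short. For each tested gene, the 1000 bases upstream of 1 annotated start, that of its canonical transcript, were searched on both strands (genome build GRCm39). The string searched for was a strict form of these letters, GTAAACA (its reverse complement is TGTTTAC). It was present upstream of 1820 of 15392 genes with a window (11.8%), of 3 of the 10 forkhead genes, and of 7 of 26 genes known from the literature as FOXO targets (26.9%). Among the other lists it was upstream of 1 of 25 FOXO regulators, 4 of 18 FOXP partners and targets, 3 of 12 FOXK partners, 0 of 6 FOXJ3 targets and 0 of 17 FOXC vascular genes, and of 14.4% of genes called higher and 11.9% of genes called lower after training. In the nearest 250 bases it was present for 2.41% of all genes, 3 of 26 FOXO targets and 0 of the 10 forkhead genes. The sites below are shown because they lie upstream of listed forkhead genes or of a FOXO target that changed with training. Among all 22 forkhead genes tested 4 had a match, and that of Foxp2, outside the 10, is not printed. The motif is in capitals with 10 flanking bases on each side, read on the motif's strand. They lie at chr3:52175475-52175501 (+ strand, Foxo1), chrX:100297781-100297807 (+, Foxo4), chr17:48236290-48236316 (+, Foxp4) and chr2:127967721-127967747 (+, Bcl2l11, which encodes the pro-apoptotic protein BIM).
Foxo1: gcactctgtaGTAAACAaaagtatggt
Foxo4: ccagcgagtgGTAAACAgagacgtctg
Foxp4: aaattagattGTAAACAaaacttggcg
Bcl2l11: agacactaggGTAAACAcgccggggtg
A match is a string of letters and not a measured binding site, and a window without one says only that these letters are not in it. Neither Foxc1 nor Foxp1 had a match in its window, and the other annotated starts of Foxp1 were not searched.

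Foxc1 and Foxc2, close paralogs with 1 annotated transcript each, lie in unlike sequence, and the 250 bases upstream of each start are shown, with every CpG in capitals, because Foxc1 was called after training and Foxc2 was not. The Foxc1 window (chr13:31990366-31990615, + strand, GRCm39) held 72.8% G or C and 30 CpG pairs. The Foxc2 window (chr8:121842660-121842909, + strand, GRCm39) held 44.8% G or C and 8 CpG pairs, and the median of the tested genes was 56% G or C.
Foxc1: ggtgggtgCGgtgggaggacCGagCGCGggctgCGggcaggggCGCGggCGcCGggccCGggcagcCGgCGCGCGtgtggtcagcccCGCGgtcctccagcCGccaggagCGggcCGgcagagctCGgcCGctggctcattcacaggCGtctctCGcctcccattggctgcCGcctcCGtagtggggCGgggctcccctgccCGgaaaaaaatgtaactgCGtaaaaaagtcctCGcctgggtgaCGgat
Foxc2: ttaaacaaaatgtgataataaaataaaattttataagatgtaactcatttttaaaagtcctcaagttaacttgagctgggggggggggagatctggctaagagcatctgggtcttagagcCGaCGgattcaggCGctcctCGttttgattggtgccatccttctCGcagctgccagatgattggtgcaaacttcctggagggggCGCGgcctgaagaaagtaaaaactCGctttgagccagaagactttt
No methylation or chromatin was measured in these hearts, so the sequences are a description only.

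Of the 10 forkhead genes, Foxc1 and Foxp1 rose with training and the other 8 did not pass the test. Both calls were lost when an atrial, fibroblast or endocardial marker score of each heart was added to the model. The log2 fold change was then 0.23 to 0.29 for both genes, lower than without a score for Foxc1 (0.49) and close to it for Foxp1 (0.29). With these scores, in this order, the standard error of Foxp1 rose from 0.067 to 0.086, 0.093 and 0.095. That of Foxc1 rose from 0.109 to 0.112, 0.135 and 0.115. Calls among all tested genes fell from 1084 to 104, 36 and 135, so the loss was not particular to these 2 genes. Foxc1 was 40.3% higher and Foxp1 22.2% higher in training hearts, while the estimates for the other genes lay between a fall of 3.64% and a rise of 7.78%. The test was edgeR's quasi-likelihood test over all 15454 genes that passed a filter on low counts, with Benjamini-Hochberg adjustment and calls at a false discovery rate (FDR) below 0.1. It called 1084 genes (7.01%), 425 higher after training (2.75%) and 659 lower, so that 2 calls among 10 genes stand beside a background of 7.01%, or of 2.75% in the direction of both. These totals moved with the processing: scaling by library totals alone called 1029 genes higher, and fits without 1 heart called 512 to 1490 genes in all. By point estimate, 8 of the 10 genes were above 0 and 2 below, with a median log2 fold change of 0.08 against 0.00 over all tested genes. The groups did not overlap in CPM for 1 of the 10, Foxc1, against 5.06% of all tested genes.

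**Figure D1:**
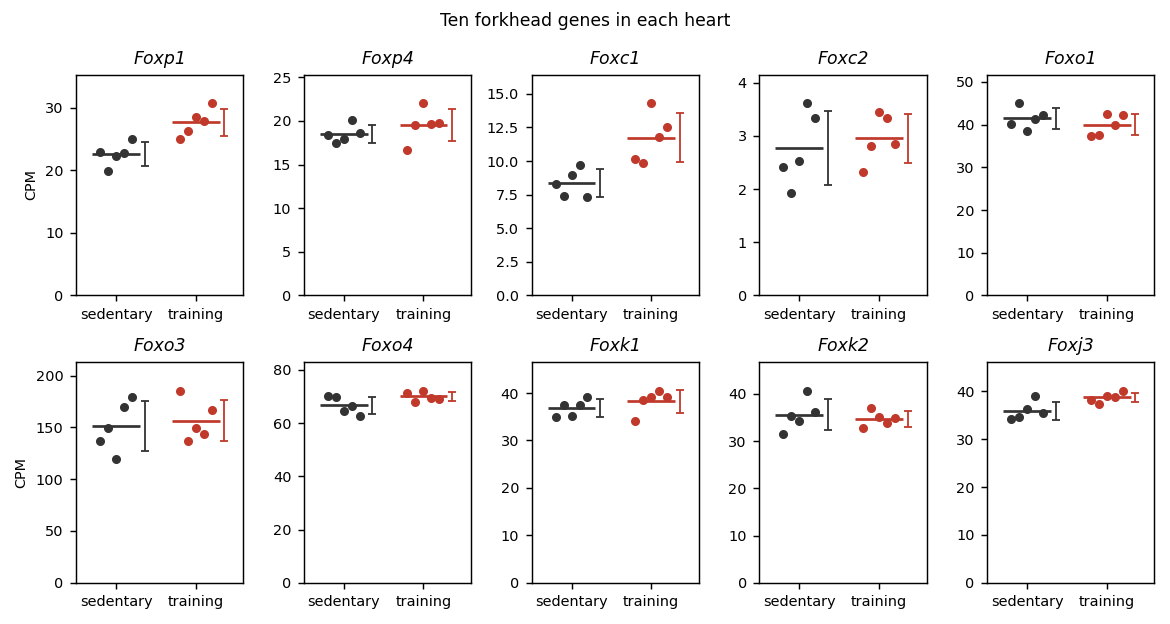
CPM of the 10 forkhead genes in each of 5 sedentary and 5 training hearts (points in the order of mouse number, horizontal lines for group means, bars for 1 SD, linear axes from 0). The Foxc1 points of training hearts, from 9.88 to 14.3 CPM, all lie above the sedentary points, from 7.31 to 9.73 CPM, and in each of the other 9 panels the groups overlap.

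Foxp1 represses transcription and is known from the mouse embryo for roles in cardiomyocyte proliferation and in the endocardium. Foxp1 (ENSMUSG00000030067, chr6:98902299-99499685, minus strand) stood at 25.0, 26.3, 28.5, 27.9 and 30.7 CPM in training hearts 1 to 5 and at 23.0, 19.9, 22.3, 22.8 and 25.1 CPM in sedentary hearts 1 to 5. Sedentary heart 5 was level with training heart 1, and 4 of the 5 training hearts lay above every sedentary heart. The means were 27.7 ± 2.18 and 22.6 ± 1.84 CPM (SD, n = 5 each), a log2 fold change of 0.29 (SE 0.067, 95% interval 0.15 to 0.43, edgeR adjusted p = 0.0347). These values rested on 682 to 1063 reads per heart. Foxp1 spans many annotated starts, and the small genes annotated on its own strand drew 8 reads at most, summed over the 10 hearts. Reads that fall on both Foxp1 and such a gene are set aside as ambiguous and counted for neither. How many Foxp1 reads were set aside in this way was not tested.

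Foxp4, the other FOXP gene listed, did not pass the test. Foxp4 (ENSMUSG00000023991, chr17:48178058-48235699, minus strand) stood at 16.7, 19.5, 22.01, 19.6 and 19.8 CPM in training hearts and 18.4, 17.4, 17.9, 20.1 and 18.6 CPM in sedentary hearts. Training heart 1 was the lowest of all 10 and training heart 3 the highest, so the sedentary values lay inside the training range. The log2 fold change was 0.08 (SE 0.068, 95% interval -0.07 to 0.23, edgeR adjusted p = 0.559). Within each heart, the reads of Foxp1 per read of Foxp4 were 1.42 ± 0.105 after training and 1.22 ± 0.0890 in sedentary hearts (SD, n = 5 each), a difference of 0.22 on the log2 scale. The groups overlapped, from 1.29 to 1.55 and from 1.13 to 1.35. The ratio was chosen after the values of both genes had been seen, so it is given as a description only.

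Foxc1, known for its part in the formation of the outflow tract, valves and vessels, had the largest change of the 10 genes. Foxc1 (ENSMUSG00000050295, chr13:31990616-31996459, plus strand) stood at 10.1, 9.88, 14.3, 11.8 and 12.5 CPM in training hearts 1 to 5 and at 8.32, 7.42, 9.00, 9.73 and 7.31 CPM in sedentary hearts 1 to 5. Every training heart was above every sedentary heart, with training heart 2 and sedentary heart 4 closest to each other. The means were 11.7 ± 1.81 and 8.36 ± 1.03 CPM (SD, n = 5 each), a log2 fold change of 0.49 (SE 0.11, 95% interval 0.26 to 0.72, edgeR adjusted p = 0.0308), from 254 to 534 reads per heart. Without sedentary hearts 2 and 5, the log2 fold change of Foxc1 was 0.38 (edgeR adjusted p = 0.152). These were the hearts of low atrial marker RNA and held the 2 lowest Foxc1 values, so their removal lowers its estimate. Foxp1 kept its call in that fit at 0.29 (edgeR adjusted p = 0.0786). For Foxp1 the same 2 hearts held the lowest and the highest sedentary values, 19.9 and 25.1 CPM, which offset each other. The fit therefore does not compare how the 2 genes depend on atrial marker RNA.

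Foxc2, which is required for lymphatic valves, was the least abundant of the 10 genes and the least precisely measured. Foxc2 (ENSMUSG00000046714, chr8:121842910-121845634, plus strand) stood at 2.32, 2.81, 3.45, 3.33 and 2.85 CPM in training hearts and 2.41, 1.93, 2.53, 3.61 and 3.34 CPM in sedentary hearts. Both the lowest and the highest heart were sedentary. The log2 fold change was 0.10 (SE 0.17, 95% interval -0.26 to 0.46, edgeR adjusted p = 0.805), an interval that holds values close to the estimate for Foxc1. The reads of Foxc1 per read of Foxc2 were 3.99 ± 0.428 after training and 3.15 ± 0.686 in sedentary hearts (SD, n = 5 each), a difference of 0.37 on the log2 scale with overlapping groups (3.52 to 4.38 and 2.19 to 3.85). This ratio too was chosen after the values had been seen, and a difference in response between the 2 FOXC genes was not shown.

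**Figure D2:**
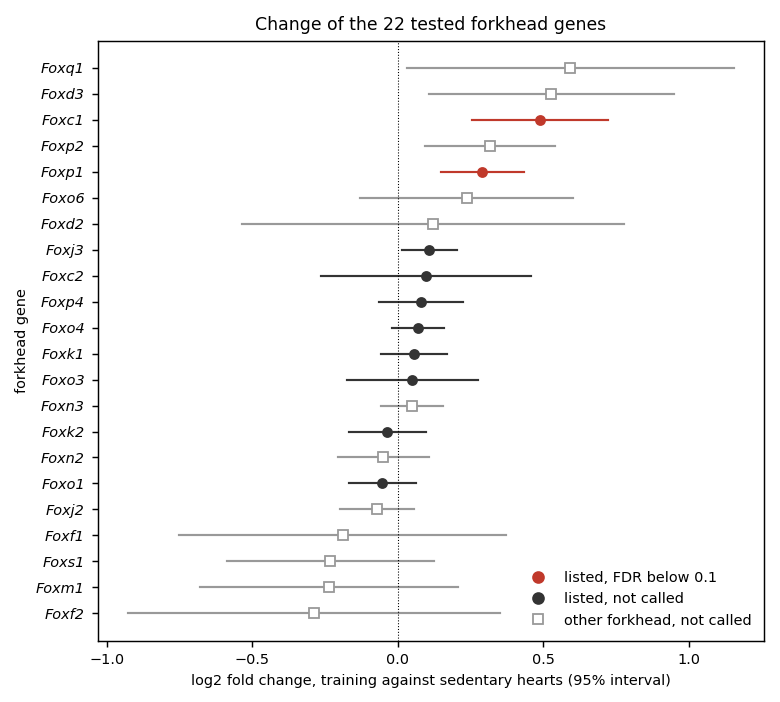
Log2 fold change, training against sedentary hearts, with its 95% interval, for the 22 forkhead genes that passed the filter on low counts (filled circles for the 10 listed genes, open squares for 12 others). Foxc1 at 0.49 and Foxp1 at 0.29 are the 2 genes called at an FDR below 0.1, and the widest intervals belong to genes of few reads such as Foxq1, Foxd2 and Foxf2.

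Markers of other parts and cells of the heart also differed between the groups. Calls on these and the following marker lists are set beside 7.01% called and 20.0% with an unadjusted p below 0.05 among all tested genes. All 10 fibroblast markers had a higher estimate after training (median log2 fold change 0.22), and Pdgfra, a receptor of connective tissue cells, Lum, a matrix proteoglycan, and Gsn, an actin-severing protein and the most abundant of the list, were called. The summed CPM of these markers were 3375, 3066, 4075, 3577 and 3443 in training hearts and 3200, 2786, 3043, 2858 and 2868 in sedentary hearts. All 4 endocardial markers, of which Vwf was the most abundant, also had a higher estimate (median 0.34), with Cytl1 called at 0.46, and their summed CPM were 272, 267, 334, 298 and 283 against 278, 196, 268, 250 and 180. Training heart 3, the highest for Foxc1, was also the highest for the fibroblast, endocardial and atrial sums, and sedentary hearts 2 and 5, the lowest for Foxc1, were the lowest for the endocardial and atrial sums. For Foxp1, sedentary heart 2 was the lowest of all hearts and also had the lowest fibroblast and atrial sums and the second lowest endocardial sum. Its highest heart, training heart 5 at 30.7 CPM, had the lowest atrial sum of the training hearts (5259), and its highest sedentary heart, sedentary heart 5 at 25.1 CPM, had the lowest endocardial sum of all (180).

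Of the 10 atrial markers, 9 had a higher estimate after training (median log2 fold change 0.47). Dkk3, a secreted WNT pathway protein, Sln, the atrial regulator of the sarcoplasmic calcium pump, Stard10 and Sbk2 rose, Kcna5, a potassium channel gene, fell, and Nppa, the natriuretic peptide gene and the most abundant, stood at 3516 ± 581 and 2554 ± 1004 CPM (SD, n = 5 each, edgeR adjusted p = 0.248). The summed atrial CPM were 6446, 5580, 7872, 6842 and 5259 in training hearts and 7032, 2931, 4788, 5026 and 2962 in sedentary hearts, so the groups overlapped through sedentary heart 1. Kcna5 did not follow that sum, at 15.8, 34.7, 29.6, 34.9 and 31.8 CPM in sedentary hearts 1 to 5. It was lowest there in sedentary heart 1, where the sum was highest, and it was kept in the list and in the atrial score. No marker on any of these 3 lists was at 0 in all hearts. With the atrial score of each heart as a covariate the log2 fold change of Foxc1 was 0.29 (edgeR adjusted p = 0.335) and that of Foxp1 0.26 (adjusted p = 0.266). With the fibroblast score they were 0.29 (adjusted p = 0.495) and 0.23 (adjusted p = 0.405), and with the endocardial score 0.23 (adjusted p = 0.487) and 0.29 (adjusted p = 0.271). With these scores 104, 36 and 135 of all tested genes were called. Beyond these fits, the part of tissue and cell composition in the values of Foxc1 and Foxp1 was not tested.

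**Figure D3:**
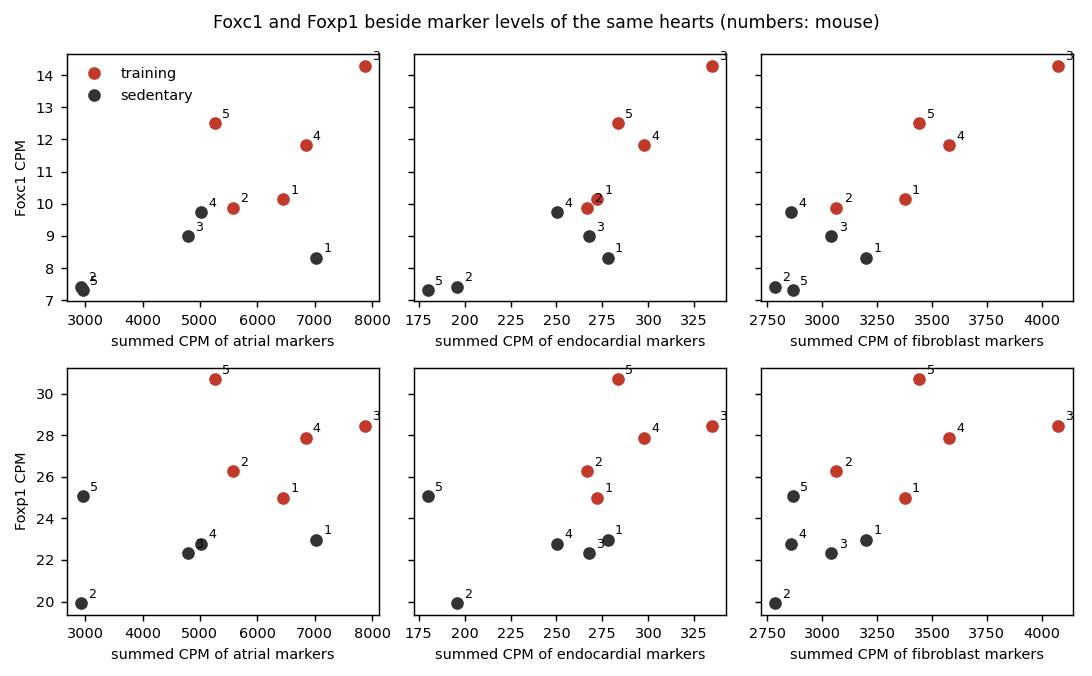
CPM of Foxc1 (top) and Foxp1 (bottom) in each heart against the summed CPM of atrial, endocardial and fibroblast markers of the same heart (red for training, black for sedentary, numbers for the mouse, axes not starting at 0). Training heart 3 lies at the upper right of all 3 Foxc1 panels, at 14.3 CPM, and sedentary hearts 2 and 5, at 7.42 and 7.31 CPM, lie at the lower left of the atrial and endocardial panels.

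Markers of the remaining cell types were mixed in direction. The 10 cardiomyocyte markers all had a lower estimate (median log2 fold change -0.11), with Actc1, cardiac alpha-actin, and Myom1, a protein of the sarcomere's M band, called, and their summed CPM were 64101 ± 1889 and 70693 ± 3426 (SD, n = 5 each). Among 10 endothelial markers, led by Eng, 4 were above and 6 below 0 and Tie1, an endothelial receptor, fell (log2 fold change -0.16). Of 9 mural cell markers, Tagln and Cnn1, genes of smooth muscle contraction, rose and Rgs5, the pericyte gene that was the most abundant of the list, fell. No gene was called by edgeR or DESeq2 among 7 lymphatic endothelial, 6 epicardial, 10 macrophage, 7 adipocyte, 5 erythroid and 2 lymphocyte markers tested. Of these markers, 1 (erythroid) had an unadjusted p below 0.05, against 20.0% of all tested genes. The leading genes of those lists were, in this order, Prox1, Upk3b, Lyz2, Cfd, Hbb-bs and Cd4. All 7 adipocyte markers nevertheless had a higher estimate after training, with a median log2 fold change of 0.65, larger than those of the fibroblast, endocardial and atrial lists. The summed CPM of the adipocyte list were 61.8, 39.4, 102, 205 and 106 in training hearts and 158, 40.4, 39.05, 70.4 and 64.5 in sedentary hearts, so the hearts of each group spread widely and the groups overlapped. The 6 epicardial markers were also all above 0 (median 0.11), the 5 erythroid and both lymphocyte markers all below 0 (medians -0.43 and -0.17), the macrophage markers 2 above and 8 below (median -0.10) and the lymphatic endothelial markers 5 above and 2 below (median 0.05). The part of these cells in the values of Foxc1 and Foxp1 was not tested.

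None of the 3 FOXO genes passed the test, and Foxo3 varied most in absolute terms. Foxo3 (ENSMUSG00000048756, chr10:42057837-42154007, minus strand), known in muscle for activating atrophy and autophagy genes, stood at 185, 137, 149, 144 and 167 CPM in training hearts and 137, 149, 120, 170 and 179 CPM in sedentary hearts. The groups overlapped almost fully, with the highest heart trained and the lowest sedentary. The log2 fold change was 0.05 (SE 0.10, 95% interval -0.17 to 0.28, edgeR adjusted p = 0.839), even though 4496 to 6549 reads per heart stood behind it. The coefficient of variation was 12.6% among training and 15.9% among sedentary hearts for Foxo3, against 2.54% and 4.87% for Foxo4.

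Foxo1 (ENSMUSG00000044167, chr3:52175757-52260642, plus strand), the FOXO factor best known from insulin signalling, stood at 37.3, 37.5, 42.4, 40.0 and 42.4 CPM after training and 40.2, 45.0, 38.5, 41.3 and 42.2 CPM in sedentary hearts. The estimate was slightly below 0 and the groups overlapped (log2 fold change -0.05, SE 0.053, 95% interval -0.17 to 0.06, edgeR adjusted p = 0.629). Foxo4 (ENSMUSG00000042903, chrX:100298073-100304479, plus strand) stood at 71.4, 67.8, 72.2, 69.3 and 69.2 CPM after training and 70.1, 69.7, 64.5, 66.5 and 62.5 CPM in sedentary hearts. The 3 lowest hearts were sedentary, yet sedentary hearts 1 and 2 lay within the training range. Its log2 fold change was 0.07 (SE 0.041, 95% interval -0.02 to 0.16, edgeR adjusted p = 0.373). For Foxo1 and Foxo4 the intervals exclude changes of 0.17 or more in either direction, and for Foxo3 they do not.

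Genes known as FOXO targets did not move in 1 direction. Of 26 targets, all tested, 13 were above and 13 below 0 (median log2 fold change 0.00), and by edgeR 1 rose and 2 fell. An unadjusted p below 0.05 was found for 11, beside 7.01% called and 20.0% below that p among all tested genes. DESeq2 called 6, 2 higher and 4 lower, adding Bnip3, Cdkn1b and Sod2 to the edgeR calls. Cdkn1a, which encodes the cell cycle inhibitor p21, stood at 94.1, 106.7, 104, 102 and 90.2 CPM after training and at 180, 214, 184, 137 and 143 CPM in sedentary hearts. All training hearts were below all sedentary hearts, a log2 fold change of -0.79 (SE 0.10, edgeR adjusted p = 0.00504) that was called in all 25 alternative fits. Cat, the peroxide-degrading catalase, fell from 262 ± 6.75 to 229 ± 11.8 CPM (SD, n = 5 each, log2 fold change -0.19, edgeR adjusted p = 0.0281). Bcl2l11, which carries the printed GTAAACA site, rose from 14.1 ± 1.77 to 18.3 ± 1.69 CPM (log2 fold change 0.37, edgeR adjusted p = 0.0369). The other FOXO targets with a match, Bnip3, Cited2, Irs2, Pdk4, Trim63 and Txnip, were not called by edgeR. The call of Cat held in 21 of the 25 alternative fits (adjusted p up to 0.296) and that of Bcl2l11 in 23 (up to 0.186), and the fits with an atrial or fibroblast score as a covariate were among those that lost both. The muscle ubiquitin ligase genes Fbxo32 and Trim63 and the metabolic kinase gene Pdk4, which are widely used as FOXO readouts in muscle and were named here after their values had been seen, did not pass the test. Fbxo32 had a log2 fold change of 0.17 (adjusted p = 0.196), Trim63 of -0.03 (adjusted p = 0.823) and Pdk4 of -0.10 (adjusted p = 0.646). The largest change that missed the edgeR threshold was that of Depp1, at -0.60 (edgeR adjusted p = 0.142).

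Among 25 genes that act on FOXO proteins, 17 were above and 8 below 0 (median log2 fold change 0.05), 2 rose, 1 fell, and 6 had an unadjusted p below 0.05, beside 7.01% called and 20.0% below that p among all tested genes. Pik3r1, the regulatory subunit of phosphoinositide 3-kinase, stood at 211, 170, 225, 183 and 216 CPM after training and at 260, 253, 251, 298 and 278 CPM in sedentary hearts. The groups did not overlap (log2 fold change -0.42, SE 0.075, edgeR adjusted p = 0.0153). Sgk1 had the largest change of this list, a log2 fold change of -0.51, but was not called (edgeR adjusted p = 0.144). The genes that rose were 2 of the 6 listed that encode 14-3-3 proteins, Ywhaq (20.3 ± 1.304 against 16.95 ± 0.972 CPM, log2 fold change 0.26, edgeR adjusted p = 0.0315) and Ywhab (106.96 ± 1.96 against 98.0 ± 2.32 CPM, log2 fold change 0.13, adjusted p = 0.0594). The other 4 did not pass the test, with log2 fold changes of 0.11 for Ywhaz, 0.05 for Ywhah, 0.01 for Ywhae and -0.10 for Ywhag. Over 25 alternative fits, Pik3r1 was called in 24 (adjusted p up to 0.138), Ywhaq in 22 (up to 0.399) and Ywhab in 12 (up to 0.479). In the 10 of these that left out 1 heart, Pik3r1 and Ywhaq were called in all and Ywhab in 4.

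Foxk1, Foxk2 and Foxj3 did not pass the test. Foxk1 (ENSMUSG00000056493, chr5:142387240-142447766, plus strand), known to repress autophagy genes, stood at 34.1, 38.5, 39.2, 40.5 and 39.1 CPM after training and 34.9, 37.4, 35.1, 37.6 and 39.2 CPM in sedentary hearts. Training heart 1 was the lowest of all, and the log2 fold change was 0.06 (SE 0.053, 95% interval -0.06 to 0.17, edgeR adjusted p = 0.608). Foxk2 (ENSMUSG00000039275, chr11:121150786-121201060, plus strand) stood at 32.7, 37.1, 35.0, 33.7 and 35.0 CPM after training and 31.5, 35.3, 34.3, 40.7 and 36.2 CPM in sedentary hearts. The sedentary hearts spanned the training range at both ends (log2 fold change -0.04, SE 0.061, 95% interval -0.17 to 0.10, edgeR adjusted p = 0.797). Foxk2 overlaps Cybc1 and Foxj3 overlaps Frg2f1, each on the opposite strand, and the stranded counts used here keep such pairs apart.

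Foxj3 (ENSMUSG00000032998, chr4:119394201-119486319, plus strand) stood at 38.2, 37.3, 39.1, 38.8 and 40.1 CPM after training and 34.2, 34.6, 36.3, 39.01 and 35.5 CPM in sedentary hearts. Only sedentary heart 4 reached into the training range. The log2 fold change was 0.11 (SE 0.044, 95% interval 0.01 to 0.20). Its unadjusted p was 0.0287 and its edgeR adjusted p 0.193, so it did not pass the test, and scaling by library totals alone brought it to 0.16 with an adjusted p of 0.0626. The 6 genes linked to FOXJ3 in muscle were 3 above and 3 below 0 (median log2 fold change -0.01) and none was called by edgeR, by DESeq2 or at an unadjusted p below 0.05. Among them Mef2c had a log2 fold change of 0.09 (adjusted p = 0.286), Mef2d of -0.07 (adjusted p = 0.492) and Ppargc1a, the co-activator of mitochondrial biogenesis, of -0.29 (adjusted p = 0.357), with 340 ± 81.6 CPM after training and 417 ± 92.7 CPM in sedentary hearts.

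Calls among the partners of the other families are set beside 7.01% called and 20.0% with an unadjusted p below 0.05 among all tested genes. Of 18 tested partners and targets of FOXP proteins, out of 20, 12 were above and 6 below 0 (median log2 fold change 0.02), and Rbbp4, a histone-binding subunit of the NuRD complex, rose (74.0 ± 3.27 against 66.9 ± 2.90 CPM, log2 fold change 0.15, edgeR adjusted p = 0.0832), a call that held in 9 of 25 alternative fits and in 2 of the 10 among them without 1 heart. Foxp2 had the largest estimate of this list, 0.32, and was called by DESeq2 but not by edgeR (edgeR adjusted p = 0.115), and Fgf16, a growth factor gene of the heart, stood at 0.10 (adjusted p = 0.647). Of 12 FOXK partners none was called by edgeR or DESeq2 and 3 had an unadjusted p below 0.05, with 6 above and 6 below 0 (median 0.00). Their largest changes were those of Dvl2 at 0.26 (adjusted p = 0.180) and Dvl3 at -0.11 (adjusted p = 0.307), which encode Dishevelled proteins of WNT signalling, and of the growth kinase gene Mtor at -0.12 (adjusted p = 0.168). Of 17 vascular genes linked to FOXC factors, 6 were above and 11 below 0 (median -0.03) and none was called by edgeR, with 1 at an unadjusted p below 0.05. That gene was Vegfc, the lymphatic growth factor, at 0.28 (edgeR adjusted p = 0.140), which DESeq2 called, followed by the Notch ligand gene Dll4 at -0.16 (adjusted p = 0.273) and the integrin gene Itgb3 at -0.16 (adjusted p = 0.567). The FOXC list shares Prox1 and Flt4 with the lymphatic and Kdr with the endothelial markers.

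Per unit of transcript length, Foxo3 and Foxo4 stood highest of the 10 genes, while Foxo1 ranked eighth. In TPM, a transcript abundance per length that sums to the same total in each library, over the 10 hearts, Foxo3 stood at 24.1 ± 2.97 and Foxo4 at 23.9 ± 2.28, and Foxo3 was the higher of the pair in 4 of 10 hearts, so their order was not resolved. A gap followed: Foxo4 was above Foxj3 (9.14 ± 0.716) in all hearts with separate ranges. Foxj3, Foxk2 (8.28 ± 0.922) and Foxp1 (7.66 ± 1.17) were neighbours whose order held in 8 and 6 of 10 hearts. Foxp1 exceeded Foxp4 (6.18 ± 0.673) and Foxp4 exceeded Foxk1 (5.28 ± 0.459) in all 10 hearts, though the ranges overlapped, and Foxk1 exceeded Foxo1 (4.91 ± 0.363) in 9. The FOXC genes stood lowest, Foxc1 at 1.80 ± 0.477 TPM, below Foxo1 in every heart with separate ranges, and Foxc2 at 1.14 ± 0.234 TPM, below Foxc1 in 9 of 10 hearts.

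**Figure D4:**
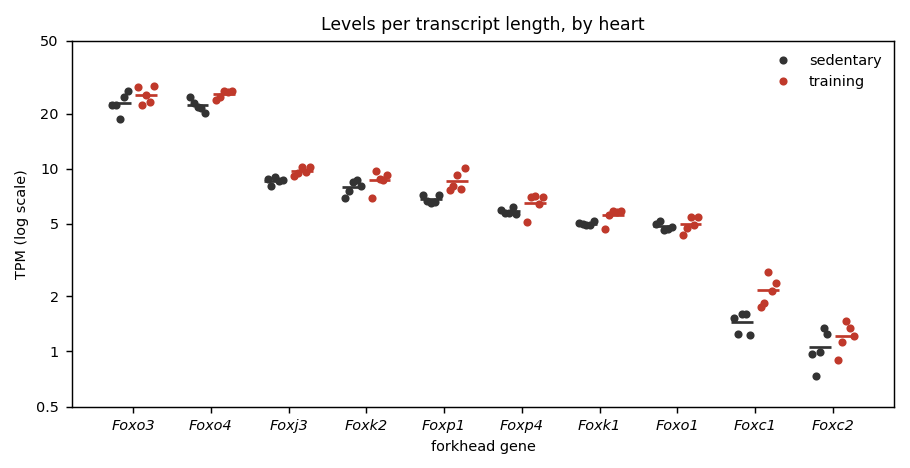
TPM of the 10 forkhead genes in each heart on a log axis, ordered by the mean over all hearts (black for sedentary, red for training, lines for group means). Foxo3 and Foxo4 lie near 24 TPM, 6 genes lie between 4.91 and 9.14 TPM on average, and Foxc1 and Foxc2 lie lowest.

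The 3 FOXO genes made up 57.0% ± 2.26 of the summed TPM of the 10 genes after training and 57.6% ± 1.73 in sedentary hearts (SD, n = 5 each). The FOXC share was 3.42% ± 0.457 and 2.89% ± 0.391, and the FOXP share 15.3% ± 0.974 and 14.6% ± 0.222. The summed TPM was 98.2 ± 5.97 after training and 86.6 ± 2.81 in sedentary hearts, with no overlap, and the mean TPM of all 10 genes was higher after training. On that scale, however, 70.5% of all tested genes were higher (median log2 ratio 0.08, against 0.17 for the 10 genes), and TPM, unlike the scaled CPM above, carries no correction for composition between libraries. In TPM the training hearts lay above all sedentary hearts for 3 of the 10 genes, Foxc1, Foxp1 and Foxj3, against 3.99% of all tested genes.

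Beyond the 10 listed genes, 12 of 35 other forkhead genes passed the filter on low counts, and none was called by edgeR. The 23 that did not pass had a mean of at most 0.122 CPM, reached by Foxd1, and 11 of them had no read in any heart. Of the 12, 6 were above and 6 below 0 (median log2 fold change 0.00), and 3 had an unadjusted p below 0.05, where 7.01% of all tested genes were called and 20.0% fell below that p. Foxp2, which can pair with Foxp1 and Foxp4, was the best measured of these 3: it stood at 5.97, 5.33, 6.02, 6.82 and 6.53 CPM after training and 5.81, 4.12, 4.42, 4.78 and 5.42 CPM in sedentary hearts. Its 3 lowest values were sedentary (log2 fold change 0.32, SE 0.10, edgeR adjusted p = 0.115), and DESeq2 called it. Foxd3, a neural crest factor, had a log2 fold change of 0.53 (edgeR adjusted p = 0.153) and Foxq1 of 0.59 (adjusted p = 0.225), from 21 to 40 and 8 to 21 reads per heart.

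The other 9 had adjusted p values of 0.473 or more. Foxn3, a repressor, and Foxj2 were abundant, at 66.9 and 52.9 CPM on average, with log2 fold changes of 0.05 and -0.07. Foxn2 had -0.05, Foxo6, the FOXO gene known mainly from brain, 0.24, and Foxs1, a gene of perivascular cells, -0.23. Foxm1, which drives the cell cycle, stood at 1.09 ± 0.232 CPM after training and 1.28 ± 0.342 CPM in sedentary hearts (SD, n = 5 each, log2 fold change -0.24). Foxf1, Foxf2 and Foxd2, each below 1 CPM, had -0.19, -0.29 and 0.12 with standard errors from 0.26 to 0.31.

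The rise of Foxc1 and Foxp1 did not depend on any 1 heart. In the 10 fits that each left out a heart, both genes were called every time, with log2 fold changes of 0.41 to 0.55 for Foxc1 and 0.25 to 0.33 for Foxp1 and edgeR adjusted p values of 0.0214 to 0.0734 and 0.0282 to 0.0822. With the authors' estimated counts in place of the reverse-strand counts the values were again 0.49 and 0.29, both called.

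**Figure D5:**
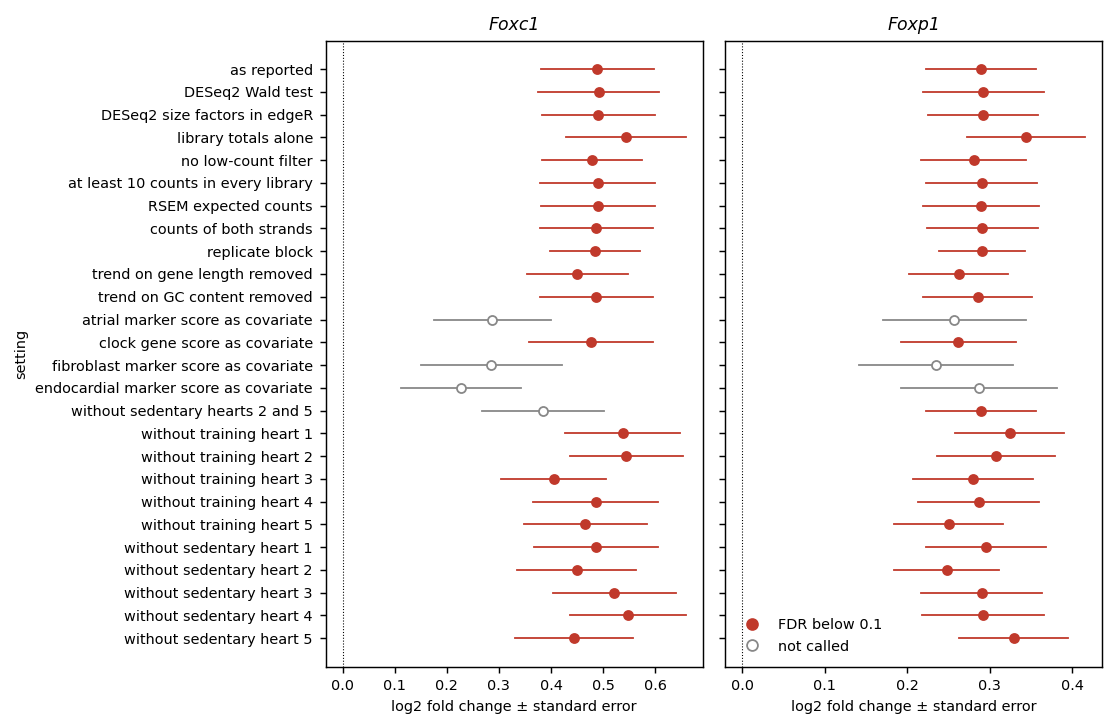
Log2 fold change of Foxc1 (left) and Foxp1 (right), training against sedentary hearts, with 1 standard error, under the reported fit and each alternative (filled for an FDR below 0.1, open for not called). All estimates lie above 0, from 0.23 to 0.55 for Foxc1 and from 0.23 to 0.34 for Foxp1, and the open points are the fits with a marker score as a covariate and, for Foxc1, the fit without sedentary hearts 2 and 5.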

How the data were processed

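Poly(A) RNA of 10 whole hearts (5 training, 5 sedentary) was read on 1 strand-specific library per heart. Per the labels and the study's methods, the authors aligned reads with STAR 2.7.10a to GRCm39 (Ensembl 107) and deposited read counts per gene for each strand setting, and they made expected counts, TPM and FPKM with RSEM 1.3.3. The deposited FPKM values were not used here. The reverse-strand counts, which held a median of 95.4% of the stranded reads, were tested, and rows that name no gene were left out: multimapping reads came to 17.9% to 19.2%, reads in no feature to 4.15% to 4.89%, ambiguous reads to 0.940% to 0.998% and unmapped reads to 0.837% to 1.05% of a library. Of 56748 gene identifiers, 56017 matched GENCODE M39, which gave symbols and coordinates.

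The groups were compared with edgeR 4.0.16 in R 4.3.3 (filterByExpr, TMM scaling, quasi-likelihood F test, Benjamini-Hochberg adjustment over all tested genes, FDR below 0.1, the study's threshold). CPM were scaled by TMM, and marker scores were means of gene-centred log2 CPM with a prior count of 2. DESeq2 1.42.0, other scalings and filters, rounded expected counts, covariates and omitted hearts were alternatives. The fits were tested on simulated data, where DESeq2 made more false calls than its threshold allows and edgeR held close to it. Replicates of a group differed by more than counting noise (chi-square per degree of freedom from 5.71 to 25.1), so none was a repeat deposit. The labels give separate mice, and p-values measure the spread between them. The forkhead genes, the 20 lists and the alternatives were chosen with earlier results of these data known. Named were all listed and the other tested forkhead genes, and in marker lists the called and the most abundant gene. In each pathway list the called genes and, up to 3, those of largest change were named. Added to these were FOXO targets with a motif match or called by DESeq2 alone, Fbxo32, Trim63, Pdk4 and the remaining Ywha genes. Motifs were searched in the GRCm39 sequence with Python 3.11.15.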

Additional observations from a re-analysis of the deposited data

Results flagged for a closer look

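The 3 single values stood far from the other hearts of their group by Dixon's test, among 44 groups of 5 hearts tested over the 22 forkhead genes, and chance alone marks about 1 group in 20. All were in sedentary hearts and in genes outside the 10 listed. Foxj2 stood at 62.1 CPM in sedentary heart 5, against 51.5 to 53.1 CPM in the other sedentary hearts. Foxf2 stood at 0.597 CPM in sedentary heart 4, against 0.219 to 0.321 CPM. Foxn2 stood at 9.90 CPM in sedentary heart 3, against 11.0 to 11.4 CPM. No value of Foxc1, Foxp1 or the other 8 listed genes was marked.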

How the results depend on the processing

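The count of 2 called genes among the 10 was 0 with the atrial, fibroblast or endocardial score as a covariate, 1 (Foxp1) without sedentary hearts 2 and 5, 3 with library totals alone (Foxj3 added) and 2 in every fit without 1 heart. All genes called, 1084 as reported, were 104, 36 and 135 with those scores, 282 without sedentary hearts 2 and 5, 505 at an FDR below 0.05, and 512 to 1490 without 1 heart. The lowest values came without training heart 4 (512) and sedentary heart 3 (512), followed by training heart 3 (540), sedentary heart 2 (611) and sedentary heart 4 (671). The cause was not tested. Fits with as many hearts also called more genes than reported, 1252 without training heart 2 and 1490 without sedentary heart 1. The fibroblast and endocardial scores, the omission of 2 hearts and the paralog ratios were chosen after seeing the data. DESeq2 called 1473 genes. Library totals alone moved the median of all genes by 0.05 and the share of calls that were higher from 39.2% to 75.2%.

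Among the other forkhead genes, 0 as reported, 1 was called (Foxp2) with DESeq2, with library totals alone and with the replicate block, and 0 to 2 without 1 heart (2, Foxp2 and Foxd3, without training heart 2, and 1, Foxp2, without sedentary heart 1). Estimates near 0 changed sign: Foxp4 to -0.0011 and Foxk2 to 0.053 with the fibroblast score, Foxc2 to -0.029 with the atrial score and to -0.0063 without sedentary heart 2, Foxo1 to 0.0014 and Foxk2 to 0.020 with library totals alone, Foxo1 to 0.0015 without sedentary hearts 2 and 5, Foxo3 to -0.057 with the clock score, to -0.019 without training heart 1 and to -0.018 without sedentary heart 3 and Foxk2 to 0.016 without sedentary heart 4. None of these was called. Without 1 heart, Foxc2 ranged from -0.0063 to 0.21, Foxo3 from -0.019 to 0.12, Foxk2 from -0.077 to 0.016, Foxp4 from 0.033 to 0.13, Foxo1 from -0.076 to -0.023, Foxk1 from 0.034 to 0.095, Foxo4 from 0.048 to 0.089 and Foxj3 from 0.091 to 0.14. The order of TPM levels was the same in all 10 ranks with CPM per kilobase.

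Training and sedentary mice share numbers 1 to 5, but same-numbered hearts did not deviate together (correlations of -0.097, 0.16, 0.075, 0.024 and 0.16), so the numbers were not used as pairs. With the replicate block, 2 of the 10 genes (Foxc1 at 0.48, Foxp1 at 0.29) and 1137 of all genes were called. At 66 to 129 reads per heart, the depth limits Foxc2 most.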

Other observations

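Clock genes moved with the groups in the same hearts. Of 14 genes of the circadian clock, 8 were called, 5 higher and 3 lower (edgeR, FDR below 0.1), against 7.01% of all tested genes. Bmal1, the core activator of the clock, fell from 16.8 ± 5.80 CPM in sedentary to 7.36 ± 1.23 CPM in training hearts (SD, n = 5 each; log2 fold change -1.19; edgeR adjusted p = 0.0154). The sedentary hearts were not alike: Bmal1 stood at 23.3, 19.7, 19.3, 8.82 and 13.1 CPM in sedentary hearts 1 to 5, so that hearts 4 and 5 lay nearer to the training hearts, which ranged from 5.67 to 8.67 CPM. Clock fell by 0.30 and Npas2 fell by 0.47 on the log2 scale. Per3, a repressor of the loop, rose by 0.80, Nr1d2 by 0.43, Tef by 0.39, Cry2 by 0.33 and Cry1 by 0.23. With the clock score of each heart as a covariate, Foxc1 stood at 0.48 and Foxp1 at 0.26, both called. That score averaged all 14 genes with equal sign, so genes that fell and genes that rose offset each other in it. It is therefore not a measure of clock phase, and the part of the clock difference in the values of Foxc1 and Foxp1 was not tested. The clock list was chosen with earlier results of these data known.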
